A study of Homo sapiens with 21 samples.

Results

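Back-splice junctions on the mitochondrial chromosome (chrM) were described in FaDu cells, an established human line derived from a hypopharyngeal carcinoma of squamous type. A back-splice junction is the point where the end of an RNA segment is joined to its start, and reads across it are counted as evidence of a circular RNA. The junctions were taken from the deposited circRNA sheets by their chromosome alone, without use of any count. They are 41 of 8714 junctions (0.579% of all junction reads), with 262 of the 45285 reads. The m6A sites on chrM were taken in the same way, 41 of 14885.

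The groups were FaDu cells with IGF2BP3 knocked down under the name sh3-1, the same line and target under the name sh3-2, and shCtr controls labelled wild type with a blank treatment. IGF2BP3 is an RNA-binding protein that reads m6A, a methyl mark on adenosine in RNA. The names sh3-1 and sh3-2 were taken as hairpins against the same gene. Each group had 3 circRNA-seq libraries with replicate letters A, B and C, and sh3-2 and shCtr also had 6 pairs of MeRIP (m6A antibody) and input libraries. All were total RNA depleted of ribosomal RNA, and per the labels' protocols the library kit keeps the strand.

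The human mitochondrial genome is a small circular DNA that codes for subunits of the respiratory chain and for the ribosomal and transfer RNAs of the organelle. Both strands are transcribed into long precursor RNAs that are cut into single transcripts, and its genes have no introns and are not spliced by the nuclear machinery. Circular RNAs with mitochondrial sequence have been described in human and mouse cells. Parts of the mitochondrial genome also exist as copies in nuclear DNA, so the assignment of such reads is uncertain, and no host off chrM carried a mitochondrial gene name (0 junctions).

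Depth was low: sh3-1 libraries held 5023, 5846 and 5732 junction reads (replicates A, B and C), sh3-2 libraries 3869, 3775 and 4168, and shCtr libraries 5502, 5552 and 5818. Where a junction had 0 reads, 3 counts of the library total set the upper limit of its share, at 0.0513% to 0.0795%. Circles of the targeted gene IGF2BP3 had 5, 1 and 0 reads with sh3-1, 3, 6 and 0 with sh3-2, and 6, 2 and 0 in shCtr, which is too few to check the knockdown. Among marker genes of other cell types, 0 of 4 fibroblast and 0 of 4 immune genes hosted a circRNA. Of the squamous epithelial markers, the type of the line itself, 1 of 8 did (EGFR, 4 reads, all in shCtr C). The pair sh3-1 A and B held 360 circRNAs found in no other library and the pair sh3-2 B and C held 197, against 10 to 87 for the other 34 pairs of libraries. On chrM those 2 pairs held 0 and 1 such junctions.

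Mitochondrial junctions fell into short and long ones with nothing between. There were 14 that span 152 to 263 bases and 27 that span 2518 to 14424 bases, and 0 lay between 300 and 2000 bases, where 15.7% of the junctions off chrM lie. The share of short junctions was 34.1% on chrM and 4.47% off it. Long ones held 188 reads and short ones 74. The sheets class 17 of the 41 as intronic and 24 as sense overlapping, and 0 as exonic, against 70.3% exonic off chrM. These classes follow the transcript each junction was matched to. None carries a circBase ID (0 of 41), against 56.3% off chrM.

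Starts were shared more than ends. Of the 41 junctions, 19 (46.3%) share a start with another junction of the same strand, against 26.0% off chrM, and 6 (14.6%) share an end, against 25.6%. Start 1680 had 10 junctions with 10 different ends and start 959 had 7 with 7 different ends, and together these 17 junctions held 161 of the 262 reads. On the plus strand 4 further junctions start between 1684 and 1709. Only the end 9190 was used by more than a pair, by 4 junctions with 15 reads. Coordinates are those of the deposited sheets in build hg19, and the genes they fall in were not looked up, since a chrM annotation of that build was not used here.

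**Figure D1:**
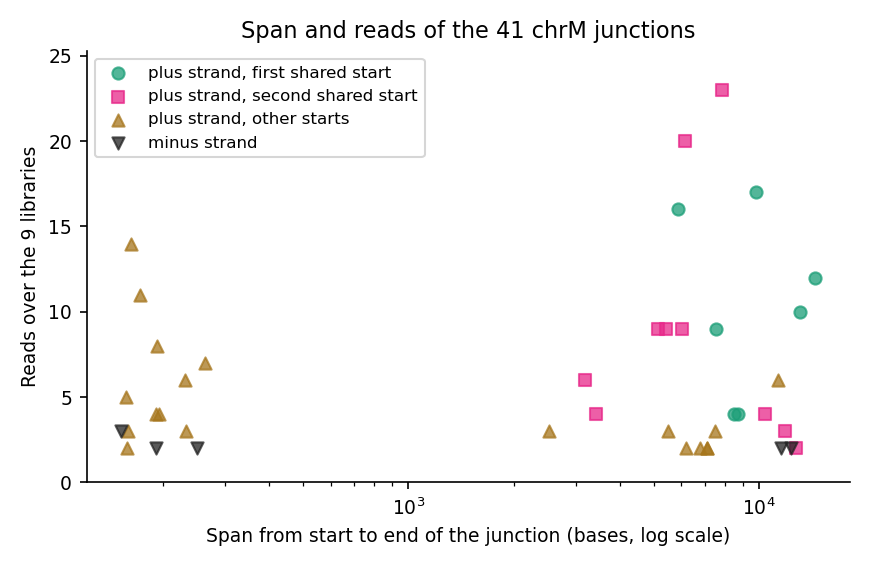
Each point is 1 of the 41 chrM junctions, with its span in bases (log scale) across and its reads summed over the 9 libraries up, marked by strand and by the 2 starts that most junctions share (959, then 1680). Spans lie at 152 to 263 bases or at 2518 to 14424 bases, and all junctions of both shared starts are long.

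Of the 41 junctions, 21 (51.2%) had reads in 1 library only, against 62.1% off chrM. Reads in 3 or more libraries were found for 14 (34.1%), against 18.5% off chrM. The most widely found, chrM:959-10746 on the plus strand, had reads in 6 of 9 libraries. Any pair of libraries shared 0 to 9 chrM junctions. By group, 28 had reads in hairpin libraries only (10 in both hairpins, 10 in sh3-2 alone and 8 in sh3-1 alone), 8 in hairpin and control libraries, and 5 in shCtr alone. There are 6 hairpin libraries and 3 control libraries, and 47.1% of the junctions off chrM also had reads in hairpin libraries only, against 68.3% on chrM.

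Mitochondrial junction reads were more frequent with sh3-2 than in controls. The sum over chrM was 28, 14 and 59 reads in sh3-1, 36, 44 and 50 in sh3-2, and 7, 17 and 7 in shCtr. Per 1000 junction reads these are 5.57, 2.39 and 10.3 in sh3-1, 9.30, 11.7 and 12.0 in sh3-2, and 1.27, 3.06 and 1.20 in shCtr. The exact (Clopper-Pearson) 95% interval was 6.53 to 12.9 for the lowest sh3-2 library and 1.78 to 4.90 for the highest control. Every sh3-2 library lay above every control, whereas sh3-1 B lay below shCtr B, so the sh3-1 and control libraries overlapped.

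Group means were 6.09 ± 3.97 per 1000 with sh3-1, 11.0 ± 1.47 with sh3-2 and 1.85 ± 1.05 in shCtr (SD, n = 3 each). The difference from shCtr was 9.14 per 1000 with sh3-2 (a ratio of 5.95; exact two-sided permutation p = 0.1) and 4.24 with sh3-1 (a ratio of 3.30; exact p = 0.2). With 3 against 3 libraries 0.1 is the smallest p possible, and over the 9 exact tests made on mitochondrial reads, junction numbers and strand the adjusted p of both was 0.45 by Benjamini-Hochberg. Both comparisons use the same 3 control libraries. Without sh3-1 C the sh3-1 difference was 2.14 per 1000. With the pairs sh3-1 A and B, and sh3-2 B and C, each entered as 1 sample by their mean, the differences were 5.29 with sh3-1 and 8.72 with sh3-2. The exact two-sided permutation p was then 0.2 for each, and with fewer samples the smallest possible p is above 0.1.

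**Figure D2:**
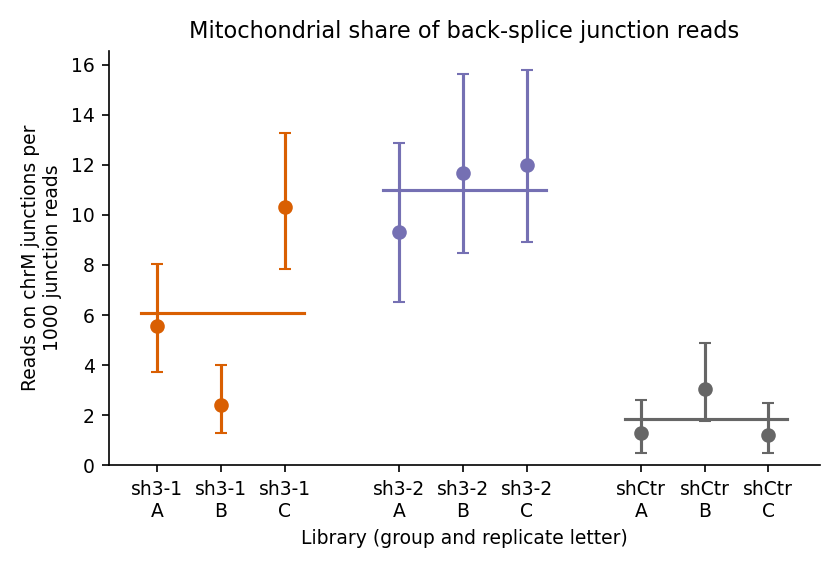
Reads on chrM junctions per 1000 junction reads in each library, with exact 95% intervals for counting error (vertical bars) and the group mean (horizontal line, n = 3). The sh3-2 libraries lie at 9.30 to 12.0, above the controls at 1.20 to 3.06, and the sh3-1 libraries spread from 2.39 to 10.3.

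The number of different chrM junctions per library overlapped between sh3-1 and shCtr and did not between sh3-2 and shCtr. Libraries of sh3-1 held 9, 4 and 17 chrM junctions, those of sh3-2 13, 15 and 17, and those of shCtr 5, 6 and 4. The mean was 10 ± 6.56 with sh3-1 (exact two-sided permutation p = 0.4 against shCtr), 15 ± 2 with sh3-2 (exact p = 0.1) and 5 ± 1 in shCtr (SD, n = 3 each). Over all chromosomes the order was the other way, with 1484 to 1746 junctions per sh3-2 library against 1784 to 2072 per control. Without sh3-1 C the sh3-1 difference was 1.5 junctions and without sh3-1 B it was 8, against 5 with all libraries.

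In a fit over all features, reads were summed by host gene, with chrM as 1 feature, and tested by the quasi-likelihood test of edgeR with Benjamini-Hochberg adjustment over all features. With sh3-2, chrM was higher by a log2 fold of 2.55 (SE 0.39, adjusted p = 1.41e-08, n = 3 against 3), the smallest p of the 59 features tested. There, 2 features (3.39%) passed an adjusted p of 0.05. With sh3-1 the log2 fold was 1.70 (SE 0.48, adjusted p = 0.140), again the smallest p, this time of 83 features, of which 0 (0%) passed and 7 had an unadjusted p under 0.05. DESeq2 gave 0 calls with sh3-1 and 5 features under that p. The edgeR rank of chrM by p with sh3-1 was 12 of 106 without sh3-1 C, 7 of 115 without shCtr A and 4 of 101 without shCtr C. It was 2 of 3360 without a filter on low counts. When any other library was left out, chrM kept the smallest p. The mitochondrial sum was examined because earlier results of these data were known, and the labels do not say whether replicates are separate cultures.

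By chromosome, chrM stood outside the range of the others. It also had the fewest reads, 262 (31 of them in controls) against 644 or more on each of the others, so counting error weighs most on its ratio. The log2 ratio of mean reads per 1000 was 1.72 with sh3-1 over shCtr on chrM, against −0.25 to 0.58 on the other 23 chromosomes with reads in every library. With sh3-2 over shCtr it was 2.57 on chrM, against −0.51 to 0.68 on the others. Every sh3-2 library lay above every control on 3 of 24 chromosomes (12.5%), namely chromosomes 6, 22 and M. Every sh3-1 library did so on 2 of 24 (8.33%), chromosomes 6 and 22 and not M. With chrM tested as 1 of 24 chromosomes, a test added after the data were seen, edgeR gave an adjusted p of 4.52e-07 with sh3-2 and 0.333 with sh3-1.

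**Figure D3:**
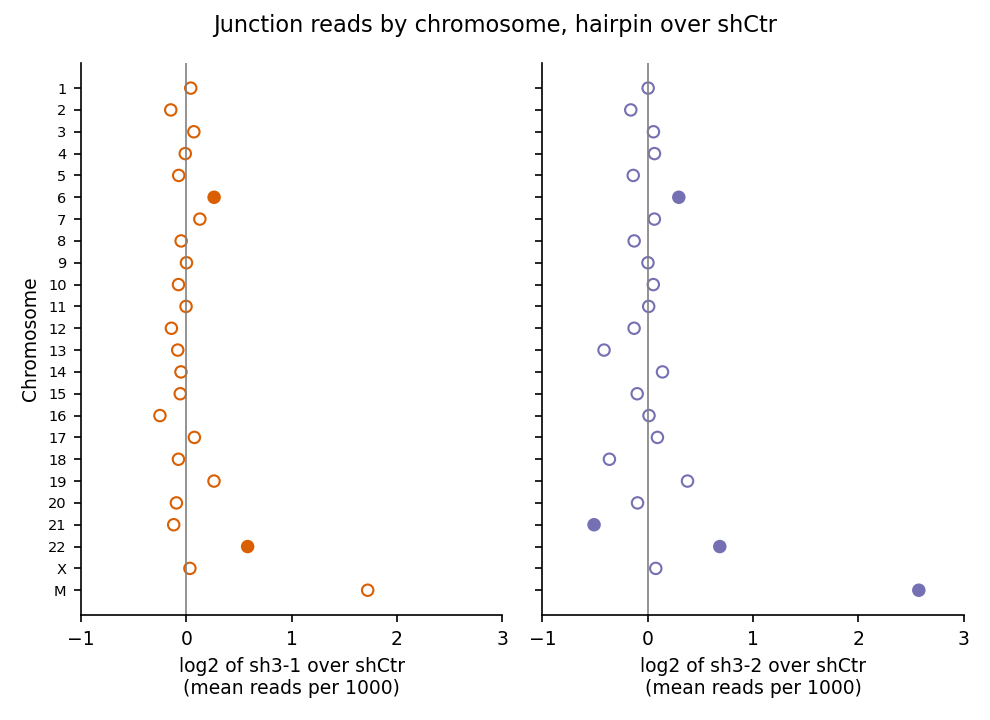
Log2 ratio of mean junction reads per 1000 in sh3-1 (left) and sh3-2 (right) over shCtr for each chromosome with reads in every library. Filled points mark chromosomes where the groups' 3 libraries do not overlap in either direction. ChrM, with the fewest reads (262), lies at 1.72 and 2.57, and the others between −0.51 and 0.68.

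The data are counts of junction reads only, and whether these reads come from true circles was not tested. More circles per mitochondrial transcript, more mitochondrial RNA per cell and a different share of it left in the library cannot be told apart. Total junction reads were lower in sh3-2, and the raw chrM reads, without a denominator, were 43.3 ± 7.02 per sh3-2 library against 10.3 ± 5.77 per control. The intronic class, which holds 17 of the 41 junctions, made up 8.80 ± 0.572% of reads with sh3-2 and 6.82 ± 0.357% in shCtr, and 8.53 ± 0.332% and 6.75 ± 0.389% once chrM was left out. Mitochondrial junctions held 4.12 ± 2.34% of intronic reads with sh3-2 and 1.25 ± 0.886% in shCtr (SD, n = 3 each). These libraries overlapped (exact two-sided permutation p = 0.2), since sh3-2 B (1.91%) lay below shCtr B (2.23%). The sense overlapping class holds 24 of the 41 junctions. Mitochondrial junctions held 5.41 ± 2.88% of its reads with sh3-2 and 0.783 ± 0.444% in shCtr, without overlap (exact p = 0.1). With sh3-1 the means were 2.53% of intronic and 3.65% of sense overlapping reads, and both overlapped the controls.

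The deposited sheets assign the 41 junctions to 9 host names, most of them transcript identifiers for which the files give no function. G087361 (13 junctions, plus strand) had 7, 10 and 12 reads in sh3-1, 20, 6 and 14 in sh3-2, and 4, 8 and 2 in shCtr. TVAS5 (11 junctions, plus strand) had 3, 4 and 28 reads in sh3-1, 6, 16 and 3 in sh3-2, and 1, 3 and 5 in shCtr. In raw reads both hosts overlapped between groups. Per 1000 junction reads, G087361 was at 1.39, 1.71 and 2.09 in sh3-1, 5.17, 1.59 and 3.36 in sh3-2, and 0.727, 1.44 and 0.344 in shCtr, so that every sh3-2 library lay above every control. TVAS5 overlapped on this scale too, and a single library, sh3-1 C, held 28 of the 35 TVAS5 reads of that hairpin.

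DQ582265 (6 junctions, plus strand) had 6, 0 and 11 reads in sh3-1, 4, 11 and 18 in sh3-2, and 1, 5 and 0 in shCtr. OK/SW-cl.16 (4 short junctions, plus strand) had 9, 0 and 4 reads in sh3-1, 0, 4 and 11 in sh3-2, and 1, 1 and 0 in shCtr. Both overlapped the controls in raw reads. Per 1000 junction reads, DQ582265 was at 1.03, 2.91 and 4.32 in sh3-2, all above the 0.182, 0.901 and 0 of shCtr, whereas OK/SW-cl.16 overlapped. No library of either hairpin group was consistently the highest over these 4 hosts: sh3-2 A led for G087361, sh3-1 C for TVAS5, and sh3-2 C for DQ582265 and OK/SW-cl.16.

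The gene ND5, for a subunit of respiratory complex I, is named in 2 ways in the sheets. MTND5 had 0, 0 and 2 reads in sh3-1, 2, 5 and 2 in sh3-2, and 0 in each shCtr library. MT-ND5 had 2 reads, both in sh3-2 B. For MTND5 every sh3-2 library lay above every control. Its 1 junction had 0 control reads, was listed through hairpin reads alone and could only be higher. No chrM host by itself passed the filter on low counts (filterByExpr) in any comparison, so none of the 9 was tested alone.

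**Figure D4:**
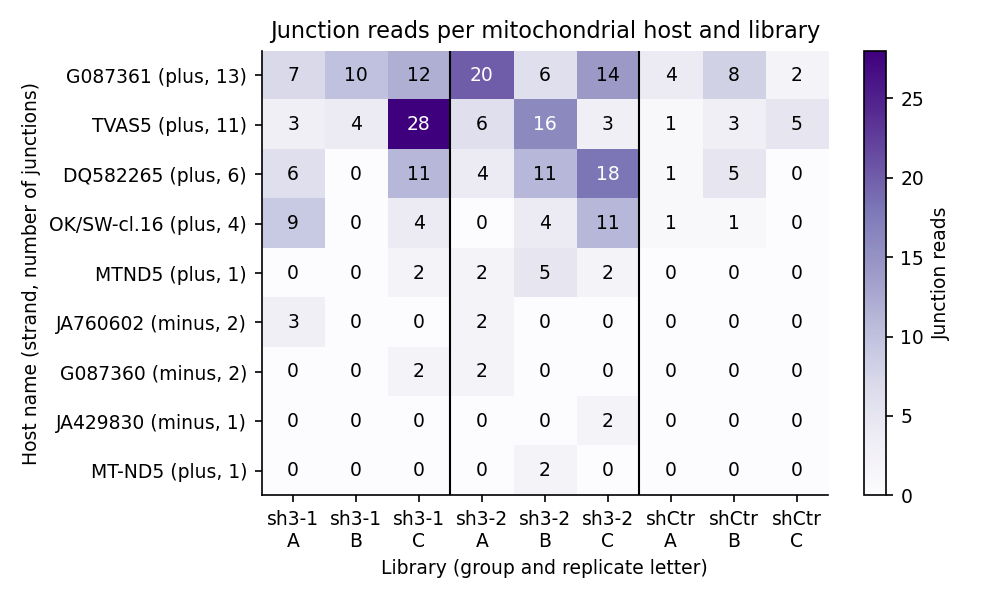
Junction reads for each of the 9 chrM host names (rows, with strand and number of junctions) in each library (columns; sh3-1, then sh3-2, then shCtr), with the count written in each cell. The highest count is 28 (TVAS5 in sh3-1 C), and the 5 lowest rows have 0 in all controls.

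The 7 junctions from start 959 had 6, 8 and 11 reads in sh3-1, 4, 14 and 23 in sh3-2, and 1, 5 and 0 in shCtr. Per 1000 reads they averaged 1.49 ± 0.378 with sh3-1, 3.42 ± 2.26 with sh3-2 and 0.361 ± 0.476 in shCtr (SD, n = 3 each; exact two-sided permutation p = 0.1 for each hairpin against shCtr). This start was picked for its number of junctions in these same data, so the tests are not independent of that choice. Most of its junctions had 0 control reads and were listed through hairpin reads alone. Per 1000 reads, neither hairpin overlapped the controls here, whereas in raw reads sh3-2 A, with 4, lay below shCtr B, with 5.

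Among them, chrM:959-10746 had 1, 0 and 5 reads in sh3-1, 2, 5 and 3 in sh3-2, and 0, 1 and 0 in shCtr. The longest, chrM:959-15382, had 0, 0 and 2 reads in sh3-1, 1, 0 and 4 in sh3-2, and 1, 4 and 0 in shCtr. So the first was above all controls in all 3 sh3-2 libraries, and the second, with 5 reads each in sh3-2 and shCtr, overlapped them.

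ChrM:959-6821 had 0, 8 and 0 reads in sh3-1, 0, 3 and 5 in sh3-2, and 0 in each control. ChrM:959-14067 had 0, 0 and 1 reads in sh3-1, 0, 4 and 5 in sh3-2, and 0 in each control. ChrM:959-8468 had 1, 0 and 3 reads in sh3-1, 1, 0 and 4 in sh3-2, and 0 in each control. These 3 had reads only in hairpin libraries, and in each at least 1 library of each hairpin had none. The sh3-1 B library, with 4 chrM junctions, had 8 of its 14 reads on chrM:959-6821. The remaining pair from this start, ending at 9427 and 9641, had 4 reads each, in sh3-1 A and in sh3-2 B and C.

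The 10 junctions from start 1680 had 7, 6 and 25 reads in sh3-1, 16, 13 and 11 in sh3-2, and 1, 7 and 3 in shCtr. Per 1000 reads they averaged 2.26 ± 1.83 with sh3-1 (exact two-sided permutation p = 0.2), 3.41 ± 0.749 with sh3-2 (exact p = 0.1) and 0.653 ± 0.552 in shCtr (SD, n = 3 each). Only the sh3-2 libraries were all above the controls. This start was picked in the same way, and most of its junctions also had 0 control reads.

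Both of the most counted chrM junctions start here. ChrM:1680-9522 (23 reads) had 0, 0 and 10 reads in sh3-1, 4, 6 and 0 in sh3-2, and 1, 0 and 2 in shCtr. ChrM:1680-7802 (20 reads) had 0, 4 and 12 reads in sh3-1, 0, 2 and 1 in sh3-2, and 0, 0 and 1 in shCtr. Each was highest in sh3-1 C and absent from at least 1 library of every group.

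ChrM:1680-7116 had 0 reads in each sh3-1 library, 4, 2 and 3 in sh3-2, and 0 in each control. ChrM:1680-6841 had 0, 1 and 0 reads in sh3-1, 8, 0 and 0 in sh3-2, and 0 in each control. ChrM:1680-7694 had 7, 0 and 0 reads in sh3-1, 0, 0 and 2 in sh3-2, and 0 in each control. Equal sums thus came about differently, spread over all sh3-2 libraries for the end 7116 and mostly from 1 library for 6841 and 7694. ChrM:1680-4875 had 0, 1 and 2 reads in sh3-1, 0, 0 and 3 in sh3-2, and 0 in each control. Ends 5107 (4 reads) and 13503 (3 reads) were found in shCtr B only.

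Junctions outside starts 959 and 1680 showed the same order. Their reads were 15, 0 and 23 in sh3-1, 16, 17 and 16 in sh3-2, and 5, 5 and 4 in shCtr. Per 1000 they averaged 2.33 ± 2.08, 4.16 ± 0.333 and 0.832 ± 0.125 (sh3-1, sh3-2 and shCtr; SD, n = 3 each), with an exact two-sided permutation p of 0.4 for sh3-1 and 0.1 for sh3-2. The sh3-2 libraries were again all above the controls, and sh3-1 B, with none, was below them. The only long junction outside both starts with at least 5 reads, chrM:2837-14150, had 1, 0 and 0 reads in sh3-1, 0, 5 and 0 in sh3-2, and 0 in each control.

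The 14 short junctions had 12, 0 and 13 reads in sh3-1, 11, 12 and 14 in sh3-2, and 5, 5 and 2 in shCtr. Per 1000 they averaged 1.55 ± 1.35 with sh3-1 (exact two-sided permutation p = 0.4 against shCtr), 3.13 ± 0.262 with sh3-2 (exact p = 0.1) and 0.718 ± 0.324 in shCtr (SD, n = 3 each). The 27 long ones averaged 4.54 ± 3.05 with sh3-1 (exact p = 0.1), 7.86 ± 1.21 with sh3-2 (exact p = 0.1) and 1.13 ± 0.929 in shCtr. Both kinds were higher in every sh3-2 library than in every control; for sh3-1 this held for the long ones only, and the difference between kinds was not tested.

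The 14 short junctions have 13 different starts by strand, between 3323 and 15492. ChrM:8928-9089 had 5, 0 and 1 reads in sh3-1, 0, 1 and 6 in sh3-2, and 0, 1 and 0 in shCtr. ChrM:8928-9190, from the same start, had 4, 0 and 0 reads in sh3-1, 0, 1 and 1 in sh3-2, and 1, 0 and 0 in shCtr. Both belong to the host OK/SW-cl.16, as does chrM:8469-8625, with 0, 0 and 3 reads in sh3-1, 0, 2 and 0 in sh3-2, and none in shCtr. All 3 overlapped between groups.

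ChrM:13979-14150, the junction of the host MTND5 (172 bases), had 0, 0 and 2 reads in sh3-1, 2, 5 and 2 in sh3-2, and 0 in each control. ChrM:3323-3553 had 0 reads in each sh3-1 library, 4, 1 and 0 in sh3-2, and 1, 0 and 0 in shCtr. ChrM:3599-3790 had 0, 0 and 4 reads in sh3-1, 1, 0 and 1 in sh3-2, and 0, 0 and 2 in shCtr. The first, listed through its hairpin reads alone, was above all controls in all 3 sh3-2 libraries and the other 2 were not.

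In all, 18 junctions had at least 5 reads (197 reads) and are given above with their values. The other 23 held 65 reads, 21 of them in 1 library each, with 18 found in hairpin libraries only (78.3%) and 5 in controls only. Of all junctions with under 5 reads, 54.6% were found in hairpin libraries only.

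Minus-strand junctions were rare. Of the 41, 36 lie on the plus strand (87.8%, against 50.6% off chrM) and 5 on the minus strand, under the hosts JA760602, G087360 and JA429830. Their reads were 3, 0 and 2 in sh3-1, 4, 0 and 2 in sh3-2, and 0 in each control. Each of the 5 was found in 1 library, with 2 or 3 reads, so hairpin and control libraries overlapped. The interval chrM:13450-13640 was listed on both strands, with 4 plus-strand reads in shCtr B and 2 minus-strand reads in sh3-2 A.

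Minus-strand reads were 5 of 101 with sh3-1 (4.95%, exact 95% interval 1.63% to 11.2%), 6 of 130 with sh3-2 (4.62%, exact interval 1.71% to 9.78%) and 0 of 31 in shCtr, where the exact upper limit is 11.2% and 3 counts of the total would be 9.68%. A difference in strand was therefore not detectable at this depth (exact two-sided permutation p = 0.4 for each hairpin against shCtr over libraries, n = 3 each).

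No single chrM junction could be tested in the fit of all circRNAs. Of the 41, 0 passed the filter on low counts in any comparison. Over all circRNAs edgeR called 0 of 33 tested with sh3-1 (0%), 0 of 24 with sh3-2 (0%) and 1 of 25 for sh3-2 against sh3-1 (4%), with 2, 1 and 5 at an unadjusted p under 0.05. DESeq2 called 0, 0 and 0, with 1, 2 and 4 at that p. Without the filter, 31, 33 and 36 chrM junctions entered and edgeR called 0 of them, with 1, 5 and 0 at an unadjusted p under 0.05. Over all circRNAs without the filter, 39 of 7021, 61 of 6648 and 51 of 6150 had such a p. The 5 with sh3-2 had 0 control reads and were listed through their hairpin reads alone, so these shares are not like for like.

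In the authors' deposited table, which has its own p-values, 4 of the 33 chrM junctions listed for sh3-2 passed a p of 0.05 and a fold of at least 2, all higher, where 0.346% of all listed junctions passed and were higher. By the authors' deposited values they are chrM:959-6821 (log2 4.79, p = 0.0254), chrM:13979-14150 (4.94, p = 0.0281), chrM:959-14067 (4.96, p = 0.0314) and chrM:1680-7116 (4.91, p = 0.0374). All 4 have 0 control reads and an authors' deposited FDR of 0.558. They were listed through their hairpin reads alone and could only be higher. Junctions with 0 control reads were 20 of the 33 on chrM and 2049 of all 6648 listed for sh3-2. The 2 shares that passed are therefore not like for like. The 0 control reads were set at a floor of 3 over the group, and reads were pooled over the 3 sh3-2 libraries. Per junction read, the pooled sh3-2 reads were then 3.81-fold above this floor for chrM:959-6821 and 4.29-fold for the other 3. The floor bounds the control side only, and the 8 or 9 sh3-2 reads of each junction have counting error of their own. In sh3-2 A, chrM:959-6821 and chrM:959-14067 had 0 reads. For sh3-1, 0 of the 31 listed chrM junctions passed in either direction, where 27 of all 7021 passed and were higher (0.385%) and 45 passed and were lower, with a smallest FDR of 0.512 in the authors' deposited table.

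The authors' deposited log2 folds were above 0 for 24 of 31 chrM junctions listed for sh3-1 and 28 of 33 for sh3-2, against 44.1% and 41.8% of all listed junctions. Of the 31 and 33 on chrM, 18 and 20 had 0 control reads, against 2422 of all 7021 listed for sh3-1 and 2049 of all 6648 for sh3-2. Junctions with 0 control reads were listed through their hairpin reads alone, so their direction follows from being listed. The shares above 0 are therefore not like for like. In raw reads, every sh3-2 library lay above every control for 3 of 33 (959-10746, 1680-7116 and 13979-14150), where 0.632% of all listed junctions did so. With sh3-1 it was 0 of 31, where 0.869% of all did so. Junctions 1680-7116 and 13979-14150 had 0 control reads and were listed through their hairpin reads alone. The shares that lay above every control are therefore not like for like either.

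Between the hairpins, mean chrM reads were 11.0 per 1000 with sh3-2 and 6.09 with sh3-1 (a difference of 4.90; exact two-sided permutation p = 0.2, adjusted 0.45). With sh3-1 A and B, and sh3-2 B and C, each entered by their mean, the difference was 3.43 (exact two-sided permutation p = 0.667). In the edgeR fit by host the log2 fold was 0.93 (SE 0.37, adjusted p = 0.363), and 0 of 57 features passed (0%), with 6 at an unadjusted p under 0.05; DESeq2 called 0, also with 6. Junctions detected averaged 15 with sh3-2 and 10 with sh3-1 (exact two-sided permutation p = 0.4), with a difference of 2 without sh3-1 B and 8.5 without sh3-1 C. The minus-strand percent of chrM reads averaged 5.04 with sh3-2 and 4.70 with sh3-1 (exact two-sided permutation p = 0.8). The libraries overlap in chrM reads, since sh3-1 C (10.3 per 1000) lies above sh3-2 A (9.30). Without sh3-1 C the log2 fold was 1.41 with an edgeR adjusted p of 0.0017, whereas without sh3-1 B it was 0.52 with an edgeR adjusted p of 0.540 (3.05 per 1000), so the call depends on which sh3-1 libraries enter.

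Circles of nuclear genes for mitochondrial function overlapped between the groups. Of 76 nuclear genes for respiratory chain subunits, 14 hosted 25 circRNAs, which made up 3.05 ± 0.552 per 1000 reads with sh3-1, 4.17 ± 0.494 with sh3-2 and 3.33 ± 1.17 in shCtr (SD, n = 3 each). The most counted was ATP5C1, for the gamma subunit of ATP synthase, with 9, 7 and 14 reads in sh3-1, 8, 7 and 9 in sh3-2, and 5, 12 and 4 in shCtr.

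Of 45 factors for mitochondrial DNA and RNA, 13 hosted 35 circRNAs, at 2.73 ± 0.820 per 1000 with sh3-1, 2.66 ± 0.897 with sh3-2 and 2.79 ± 1.32 in shCtr. Proteins of the mitochondrial ribosome (12 hosts, 15 circRNAs) were at 0.903 ± 0.621 with sh3-1, 1.61 ± 0.650 with sh3-2 and 1.85 ± 1.54 in shCtr (SD, n = 3 each). In each of these 3 lists the hairpin and control libraries overlapped, and 0 of their circRNAs passed a p of 0.05 with a fold of at least 2 in the authors' deposited table for either hairpin.

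The m6A sheets compare sh3-2 with shCtr and give the authors' fold, p and FDR per site, with no values per library. On chrM, 23 sites were higher and 18 lower in the authors' deposited table, and 0 of 41 had an FDR under 0.05, where 9% of all sites did so (1340 of 14885). At an unadjusted p under 0.05 there was 1 on chrM (2.44%), against 19.1% of all sites. That site, chrM:3442-3680, was higher by 1.16-fold (p = 0.0277 and FDR 0.223 in the authors' deposited table), and 27 of the 41 junctions overlap it on the plus strand.

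Mitochondrial m6A folds were small. In the authors' deposited table the log2 folds of the chrM sites lay between −0.17 and 0.34, and over all sites between −6.59 and 6.91. The median size of the fold was 1.04 on chrM and 1.15 over all sites. The chrM sites were long, with a median of 319 bases against 199 over all sites, and together covered 12284 bases between 959 and 15740, overlapping each other in many places.

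The sheets place each site on 1 circle. On chrM these are 8 circles, and 39 of the 41 sites lie on those that begin at 959, among them 11 sites on chrM:959-6821 and 9 on chrM:959-14067. One of the 8, chrM:959-15403 with 2 sites, is not among the 41 junctions of the circRNA sheets. Since a site is a stretch of sequence that several circles and the linear transcripts share, its value cannot be tied to a single junction.

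**Figure D5:**
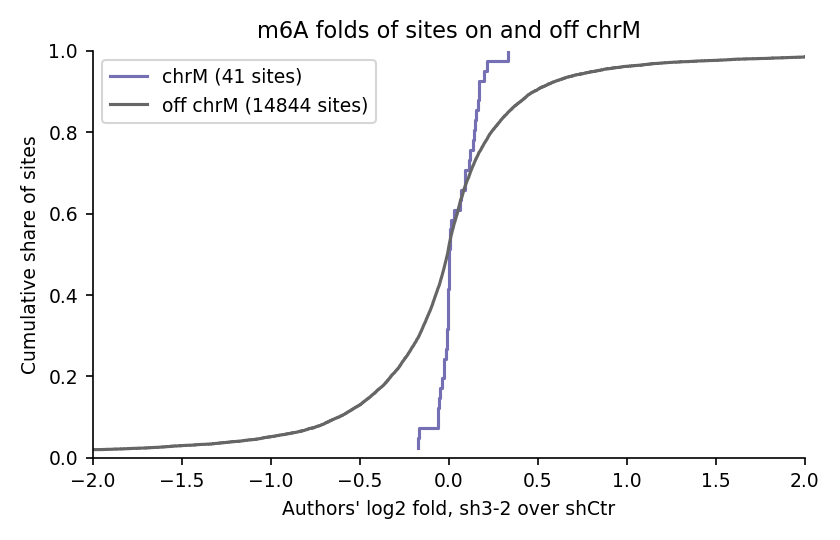
Cumulative share of m6A sites by the authors' log2 fold (sh3-2 over shCtr) for the 41 sites on chrM and the 14844 off it; 528 sites beyond ±2 fall outside the axis. The chrM sites lie between −0.17 and 0.34.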

How the data were processed

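Per the submitters' processing notes, edgeR 3.16.5, STAR 2.5.1b and cutadapt 1.9.3 were used with build hg19. The calling of junctions and m6A peaks, with its settings and minimum of reads, was not given in the sources used here. Per junction and library, the deposited sheets hold whole-number counts of reads, not normalized, per the file headers. The authors' log2 fold changes, p-values and FDR per junction are quoted as deposited. For m6A sites the authors deposited a ratio (fold, never below 1) beside an up or down label, a p-value and an FDR, and whether input was corrected for is not stated. In the sheets, 24 columns of log2 CPM per library were not used.

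Both hairpins' sheets were joined by circRNA, and a junction missing from a hairpin's sheets was given 0 reads there (3759 were listed for 1 comparison, 0 of them with control reads). The 41 chrM rows were kept with all values, and each listed junction had at least 2 reads over the 9 libraries. Counts per junction, and counts summed by host with chrM as 1 feature, were tested over the whole table with the quasi-likelihood test of edgeR 4.0.16 (robust, TMM, filterByExpr with its defaults, Benjamini-Hochberg, FDR under 0.05), on the 6 libraries compared. The SE is the size of the log2 fold divided by the root of the F statistic. DESeq2 1.42.0 (R 4.3.3) was an alternative. Group means of per-library values were compared by exact permutation tests (two-sided) in scipy 1.17.1 (Python 3.11.15, numpy 2.4.6, pandas 2.3.3). Alternatives were other scalings, no filter, a replicate block, all 9 libraries in 1 fit, leaving out each library, and other choices of junctions or features.

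Named were all chrM hosts and the junctions with at least 5 reads, and others by count or where they share a start, end or interval. The members and lists were chosen with earlier results of these data known. PCR copies could not be recognised, so intervals and floors reflect counting error alone. P-values measure the spread between libraries, which may be technical.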

Additional observations from a re-analysis of the deposited data

How the results depend on the processing

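The higher mitochondrial reads with sh3-2 than in shCtr kept their direction in every alternative run, and the edgeR call among host features was kept under other scalings, without the filter, with DESeq2, with all 9 libraries and without any 1 library (log2 2.27 to 3.08, largest adjusted p 0.0203). With sh3-1 the log2 fold lay between 1.17 and 2.26 and none of its alternatives passed (smallest adjusted p 0.0567). For sh3-2 against sh3-1 the log2 fold lay between 0.52 and 1.41 when 1 library was left out, and passed only without sh3-1 C (1.41). The minus-strand difference between sh3-2 and sh3-1 (0.336 percentage points) changed sign without sh3-2 A, sh3-1 B or sh3-1 C, with a range of −2.70 to 3.34, and the cause was not tested. Over all host features with sh3-2, edgeR called 2, DESeq2 1, no filter 1, all 9 libraries 1, and leaving out 1 library 1 or 2. Over circRNAs for sh3-2 against sh3-1, edgeR called 1 and the alternatives 0 to 2. Junctions on chrM entered only without the filter, where 0 circRNAs were called.

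The replicate letters were not taken to pair libraries: deviations of same-letter libraries correlated between −0.42 and 0.21 over 53 hosts. Counting the 6 libraries of each of 3 comparisons, 7 of 18 cases correlated best with their own letter. With a replicate block the chrM log2 folds were 1.61 with sh3-1, 2.60 with sh3-2 and 1.06 between hairpins (edgeR adjusted p 0.593, 0.00114 and 0.449), host features called with sh3-2 numbered 3, and exact sign-flip tests of the paired reads per 1000 gave p = 0.5, 0.25 and 0.25, where 0.25 is the smallest possible. As separate features, chrM hosts could not be fitted, since none passed the filter. Of the alternatives, those on starts, on spans and by chromosome were chosen after seeing the data. Control libraries held 7 to 17 chrM reads each, which limits the precision of the folds against shCtr, and single junctions were below what the test can use.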
